A study of Mus musculus with 8 samples.

Results

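MIR elements (mammalian-wide interspersed repeats) are short interspersed elements that stopped moving long ago and survive in the mouse genome as short, diverged fragments. They were taken here as every row of the deposited region table whose annotation reads class SINE and family MIR, which gave 101456 copies among 4835895 regions. The table also holds 185268 open chromatin regions (OCRs), the peaks of the accessibility assay, and 8158 MIR copies (8.04%) overlapped an OCR by at least 1 bp, while the other 93298 overlapped none. This overlap split the copies for the comparisons below.

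Chromatin accessibility was measured by ATAC-seq, in which a transposase cuts open DNA and the cut ends are sequenced, in primary fibroblasts grown from mouse lung. The libraries came from 4 mice with cGAS knocked out (cGAS KO, called KO) and 4 that were wild type (WT). By the labels, each genotype had 2 females and 2 males. The labels give no age, strain or knockout design. All cultures were kept under 5% CO2 and 5% O2 in the same medium, and none of the groups carries a further treatment. Libraries are named by genotype, sex label and number, as in KO F1 or WT M2. The series title names premature aging, chromatin organization and LINE1 derepression, and MIR copies serve as a family of retrotransposons that can no longer move.

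A MIR element descends from a transfer RNA fused to a core sequence, and its tail resembles that of L2, a long interspersed element whose enzymes are thought to have copied it. Both families spread before the placental mammals diverged, and no mouse copy is mobile. Their copies differ so much from each other that short reads can usually be placed on one of them, unlike reads from young repeats. Parts of MIR copies have been described as enhancers and as binding sites of transcription factors in other work. cGAS itself is a sensor of DNA outside the nucleus that triggers interferon signalling.

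Each library held 43.2 to 72.9 M counts in the table, of which 64.6% to 76.4% lay in OCR rows, and 275971 to 425505 counts in MIR copies. Across pairs of libraries, Pearson's r of log2 OCR counts ran from 0.861 to 0.970. The library labelled KO F2 went against its female label. Its MIR counts outside OCRs held 2.93 counts on X per 100 on autosomes, against 2.58 to 2.83 in the male-labelled libraries and 3.48 to 4.00 in the other 3 female-labelled ones. It also had 17.4 CPM (counts scaled to the library's raw table total) in 15 OCRs within the first 2 Mb of Y, where those 3 had at most 0.0399 and the male-labelled ones 23.3 to 28.0. The labels were kept. The genotype shares, the edgeR counts and subfamily values with the sex label, and the family shares are also given without this library. DESeq2 and the fits with library sets, described next, were run on all 8 libraries only. The deviations of the 8 libraries from their genotype's mean over OCRs fell into 2 sets that cross genotype and sex label. The first set holds F1 and M1 of KO with F1 and M2 of WT, and the second F2 and M2 of KO with F2 and M1 of WT. The 8 pairs of a KO and a WT library within a set correlated at 0.251 to 0.598 and the 8 pairs between sets at -0.604 to -0.286. No label names this split and the fits below leave it out, so genotype results are also given with the set as a term, or within sets, an alternative chosen after seeing the data. Whether same-genotype mice shared a litter or culture is not stated, so p-values measure the spread between these 8 libraries.

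MIR copies are short, and their length hardly separated those in OCRs from the rest. The median was 114 bp (11 to 394) over all copies and 114 bp in both sets. Copies of at most 50 bp overlapped an OCR in 7.59% of cases and those over 200 bp in 8.16%. Of the overlapping copies, 5115 (62.7%) lay wholly inside, 6654 (81.6%) had at least 50% of their bases inside, and 19 touched more than 1 OCR. In bases, 6.36% of 12102 kb of MIR sequence lay in OCRs.

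Overlap varied between the 5 annotated subfamilies. MIR3, whose copies have a median of 94 bp, overlapped an OCR most often, with 1325 of 12249 copies (10.8%). MIR1_Amn followed with 8.64% of 5010 copies, MIRc with 8.56% of 15625 and MIRb with 7.85% of 35666. The subfamily that bears the family's name had the lowest share, 6.87% of 32906 copies. On single autosomes 7.31% to 9.04% of MIR copies overlapped an OCR, against 188 of 5665 (3.32%) on X and 0 of 119 on Y. X held 4277 OCRs of any kind, fewer than any autosome (at least 5346), and Y held 87. The shares were not adjusted for this.

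MIR copies in OCRs were several times denser in read ends than MIR copies elsewhere. Density is given per kb of copy as CPM on the raw table total, and since the OCRs were called on these same libraries, a higher density inside them follows from the choice and is described without a test. In the KO libraries F1, F2, M1 and M2, overlapping copies had 2.47, 2.48, 2.65 and 2.21 CPM per kb, and copies outside OCRs 0.323, 0.348, 0.292 and 0.379. In the WT libraries, in the same order, the values were 2.30, 2.42, 2.66 and 2.67 against 0.371, 0.328, 0.281 and 0.290. These 2 sets did not overlap in any library, and their ratio ran from 5.83 (KO M2) to 9.47 (WT M1). A median overlapping copy had a mean of 9.75 counts per library and a median copy outside OCRs 1.28, so single copies of the second set are barely measured. At least 1 count (or a part of one) was seen in 97.4% to 98.7% of overlapping copies and in 60.8% to 71.1% of the others.

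**Figure D1:**
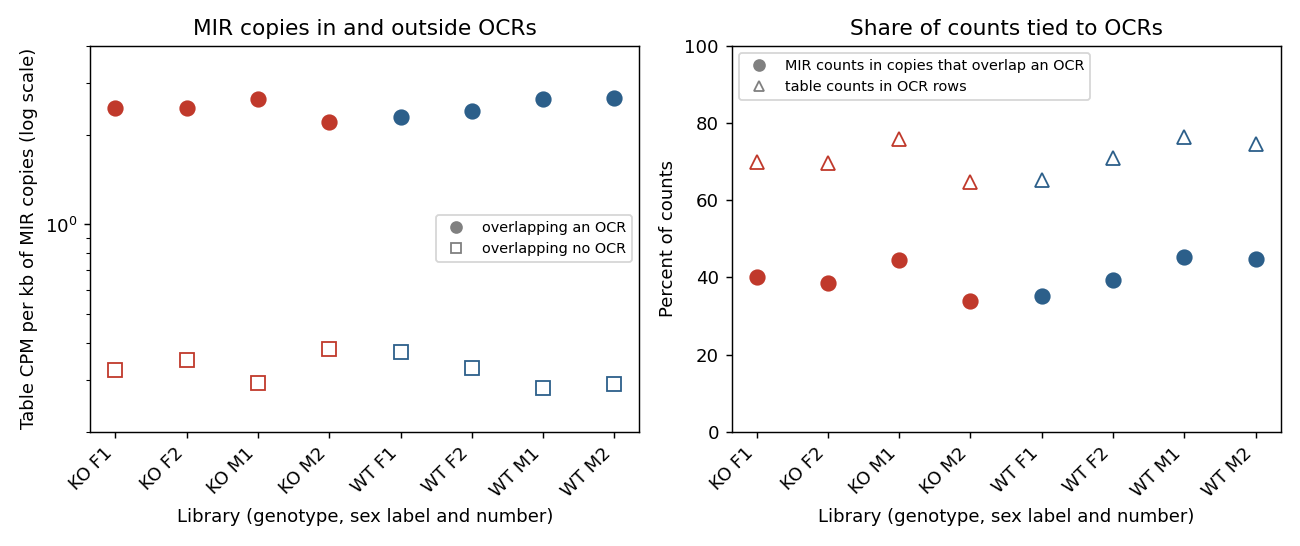
Left, CPM per kb (log scale) of MIR copies that overlap an OCR (filled circles) or none (open squares) in each of the 8 libraries, KO in red and WT in blue; right, the percent of MIR counts in overlapping copies (circles) and the percent of all table counts in OCR rows (triangles). Overlapping copies sit between 2.21 and 2.67 and the others between 0.281 and 0.379, and both shares are lowest in KO M2 and highest in WT M1.

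The authors' counting divided an end falling in more than one region equally among those regions, so a MIR copy inside an OCR shared each of its ends with that OCR. In 2099 copies that lay alone and wholly inside an OCR, every value was a multiple of 0.5 and 50.5% were whole numbers, against 99.8% of values in copies outside OCRs. The densities of overlapping copies are therefore below what the ends inside them would give, and the ratios above understate the contrast.

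Outside OCRs the density was lower the farther the nearest OCR lay. The 11223 copies within 500 bp of an OCR had 0.760 ± 0.036 CPM per kb (SD, n = 8 libraries), and those from 500 bp to 1 kb 0.477 ± 0.042. From 1 to 5 kb, where 33986 copies lie, the density was 0.336 ± 0.043, and from 5 to 20 kb 0.201 ± 0.039. The 4579 copies more than 100 kb away had 0.0914 ± 0.0347, with 0.0443 to 0.143 in single libraries. L2 copies had nearly the same profile, from 0.674 ± 0.039 within 500 bp to 0.0925 ± 0.0348 beyond 100 kb. B2, a rodent SINE with young copies, had 0.740 ± 0.082 within 500 bp and 0.107 ± 0.034 beyond 100 kb. These profiles are descriptions, since distance is measured to peaks of the same reads.

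**Figure D2:**
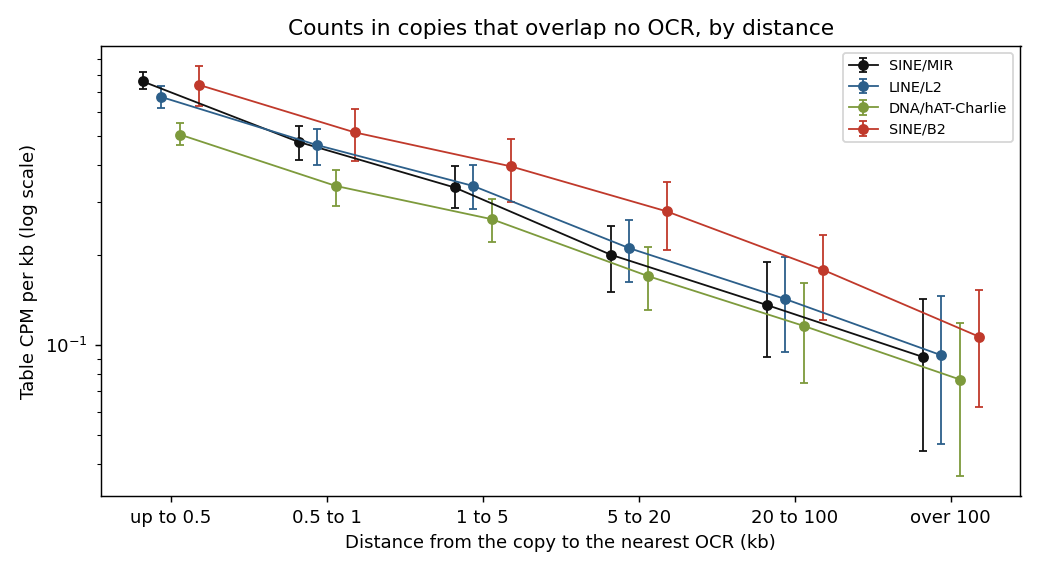
CPM per kb (log scale) of copies that overlap no OCR, by distance to the nearest OCR, for MIR, L2, hAT-Charlie and B2; points are means over 8 libraries and bars run from the lowest to the highest library. MIR goes from 0.760 within 500 bp to 0.0914 beyond 100 kb, and its libraries spread most at the far end.

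A larger share of MIR counts lay in OCR-overlapping copies than of the counts of other SINE families, and a smaller share than for L2. This share takes in the whole of every copy that touches an OCR, so it depends on the number, length and density of those copies. Overlapping copies had a median length of 128 bp in L2 and 114 bp in MIR. The share of MIR counts in overlapping copies was 40.1%, 38.5%, 44.4% and 33.9% in KO F1, F2, M1 and M2. In WT it was 35.3%, 39.3%, 45.4% and 44.7% in the same order. The mean was 40.2% ± 4.4 (SD, n = 8), against 43.7% ± 4.5 for L2, 36.7% ± 4.6 for the DNA transposon family hAT-Charlie and 25.3% ± 3.4 for ID, a rodent SINE. The B4, B2 and Alu (B1) SINEs had 22.0% ± 3.3, 20.1% ± 2.7 and 17.9% ± 2.6. In each of the 8 libraries MIR lay below L2, by 3.53 percentage points on average, and above the other 5 families, by 3.48 over hAT-Charlie, 14.9 over ID, 18.2 over B4, 20.1 over B2 and 22.3 over Alu. The OCRs were called on these libraries and the overlap share below gives the same order, so these differences are described without a test. Without the library labelled KO F2 the differences were -3.56 for L2 and 3.53 for hAT-Charlie. Where at least 50% of the copy had to lie inside the OCR, the difference to L2 was -1.10 points.

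The share of copies that overlap an OCR put the families in the same order. L2 had 8.37% of 53303 copies in overlap and hAT-Charlie 6.49% of 93854, against 5.13% for ID, 4.45% for B4, 4.28% for B2 and 3.90% for Alu. Over their whole length, MIR copies that overlap an OCR had a density of 2.48 ± 0.17 CPM per kb. This lay above the 2.17 ± 0.13 of L2 and the 1.81 ± 0.12 of hAT-Charlie, and close to the 2.53 ± 0.19 of ID. Outside OCRs MIR had 0.326 ± 0.038, ID 0.411 ± 0.048 and B2 0.369 ± 0.060. Per base the order was another. Of MIR bases 6.36% lay in OCRs, against 6.04% for L2 and 4.27% for hAT-Charlie. The ratio of density in overlapping copies to that outside was 7.74 ± 1.39 for MIR, 7.46 ± 1.35 for L2 and 8.08 ± 1.58 for hAT-Charlie (SD, n = 8), with MIR above L2 in 8 of 8 libraries and below hAT-Charlie in 7 of 8. The other SINEs had ratios of 5.62 (Alu) to 6.28 (ID). Measured by bases or by density over whole copies, MIR thus did not lie below L2. Parts of a copy outside its OCR count in that density. L2 and hAT-Charlie copies run up to 2120 and 2626 bp, against 394 bp for MIR. Relative to the rest of the OCR, a measure given below, MIR lay under both in end density. These densities were not tested between families.

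**Figure D3:**
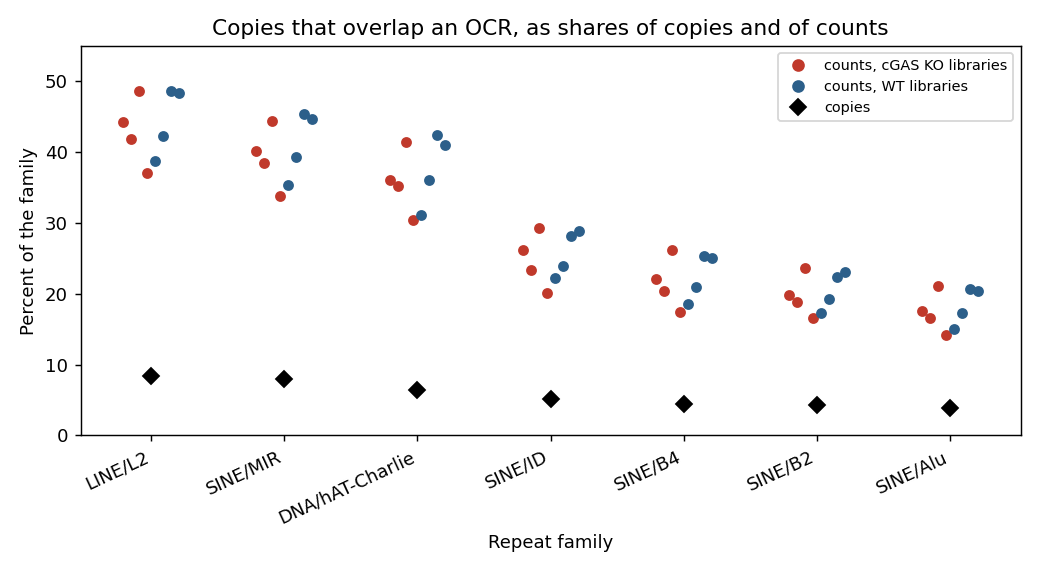
Percent of each family's copies that overlap an OCR (black diamonds) and percent of its counts in those copies for each library (circles, KO red, WT blue). MIR is at 8.04% of copies and 33.9% to 45.4% of counts, below L2 in every library and above the 5 families to its right.

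The MIR subfamilies differed among themselves in the same measure. Overlapping copies held 48.1% ± 4.3 of MIR3 counts (SD, n = 8), 43.1% ± 4.4 of MIR1_Amn counts and 41.2% ± 4.4 of MIRc counts. MIRb had 38.3% ± 4.2 and the MIR subfamily 38.0% ± 4.5. Of the 10 pairs, 9 differed in the same direction in all 8 libraries. The exception was MIR against MIRb, which differed by -0.283 points, with MIR higher in 2 of 8 libraries. The share of copies that overlap an OCR had the same order, so this too is a description with no test.

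OCRs that hold a MIR copy were longer and held more counts than OCRs at large. They numbered 7837 (4.23% of OCRs), and 7516 of them held 1 MIR copy, 302 held 2 and 19 held 3. Their median length was 645 bp against 519 bp for all OCRs and 457 bp for the 70433 OCRs free of any repeat. Their median count per library was 158.75 against 101.9 and 97. A longer region has more chance to touch a repeat, so length and overlap cannot be told apart here. In 3869 of them MIR was the only repeat family, and these had a median length of 551 bp and a median count of 123.9. Together, 6060 OCRs had no repeat other than MIR or L2, with a median count of 114.2.

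Other families met MIR in the same OCR to different degrees. An L2 copy was present in 3.39% of MIR OCRs and in 2.38% of all OCRs, and a hAT-Charlie copy in 3.85% and 3.20%. L1, the LINE family with mobile copies, was present in 2.79% of MIR OCRs against 7.91% of all OCRs. B2 was at 4.35% against 7.35%, Alu at 8.40% against 10.05%, and the LTR family ERVL-MaLR at 6.80% against 10.1%. B4 was at 7.16% against 7.91%, while ID was higher in MIR OCRs, at 1.65% against 1.45%. MIR OCRs are longer than OCRs at large, and length was not held equal in these shares. These shares are descriptions of 1 set of OCRs.

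Within OCRs the median MIR copy was nearly as dense in ends as the rest of its OCR. The measure is the log2 ratio of end density in the copy to that in the rest of its OCR, with shared ends restored to the copy in full, for copies of at least 50 bp that lie alone and wholly inside an OCR. Over 1958 such MIR copies the median was -0.049 ± 0.027 (SD, n = 8 libraries), a ratio of 0.967, with -0.086 to -0.013 in single libraries. L2 had 0.205 ± 0.043 (891 copies), hAT-Charlie 0.295 ± 0.024 (922) and B2 1.18 ± 0.08 (1630), while Alu had -0.237 ± 0.052 (1709). Over all positions in the OCR, MIR lay below L2, hAT-Charlie and B2 in all 8 libraries and above Alu in all 8. B4 and ID, at 0.046 and 0.018, also lay above MIR in all 8. At equal position, given below, the order of MIR and Alu was mostly the reverse. The same copies, in OCRs called on these reads, are measured in every library, so the libraries show only how steady the measurement is and no test between families is given.

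The differences moved with the copies and OCRs taken. With copies of at least 100 bp MIR minus B4 was 0.001 and MIR minus ID -0.040, against -0.095 and -0.066 over all. In OCRs with at least 100 counts the difference to B2 shrank from -1.22 to -0.062 and MIR lay above B4 by 0.128. With copies of 80 to 160 bp in OCRs of 300 to 800 bp, a range chosen after seeing the data, the difference to B2 was -0.587. At that common size the 778 MIR copies had a median of 0.112 ± 0.040, a ratio of 1.08, opposite in sign to the value over all sizes. The median also hid a wide spread over copies: the middle of the MIR values ran from -0.89 at the lower quartile to 0.72 at the upper, and 49.2% of copies were denser than the rest of their OCR. Summed over all copies, the log2 ratio was -0.241 for MIR, 0.059 for L2, -0.114 for hAT-Charlie, -0.170 for B2, -0.230 for ID, -0.447 for B4 and -0.645 for Alu. Sums and medians had opposite signs for hAT-Charlie, B2, ID and B4, and on the sums MIR lay above B4 and near ID. Without the restoration of shared ends MIR minus B2 was -0.156, minus L2 -0.145, minus hAT-Charlie -0.097, minus ID -0.197, minus B4 0.1005 and minus Alu 0.123.

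The ratio followed where in the OCR the copy lay. Position is the distance of the copy's centre from the OCR's centre, from 0 at the centre to 1 at the edge. The 447 MIR copies in the innermost class (0 to 0.2) had a median of 0.65 ± 0.04, a 1.57-fold density, and the next 454 had 0.39 ± 0.04. Between 0.4 and 0.6 the median was -0.10 ± 0.03, between 0.6 and 0.8 it was -0.69 ± 0.04, and in the outermost 131 copies -1.41 ± 0.10. L2 went from 0.80 to -1.46 and Alu from 0.78 to -1.16 over the same classes, and B2 from 2.36 to -1.05. In the order of the classes Alu had 0.78, 0.55, -0.01, -0.69 and -1.16. It thus lay above MIR in all but the class from 0.6 to 0.8, where both had -0.69. In the innermost part of the OCR, up to 1/3 of the way to its edge, lay 37.8% of MIR copies, 43.7% of L2, 51.7% of hAT-Charlie, 57.7% of B2 and 25.5% of Alu copies. Over all positions, place within the peak and the repeat itself cannot be told apart in this measure. At equal offset, in each class from 0 to 0.6, MIR had the lowest median of the families compared. In the innermost class the others had 0.78 (Alu) to 2.36 (B2), and between 0.4 and 0.6 -0.06 (hAT-Charlie) to 0.36 (ID). From 0.6 outward MIR was not the lowest. Copy and OCR lengths still differed between families within a class, and these differences were not tested.

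**Figure D4:**
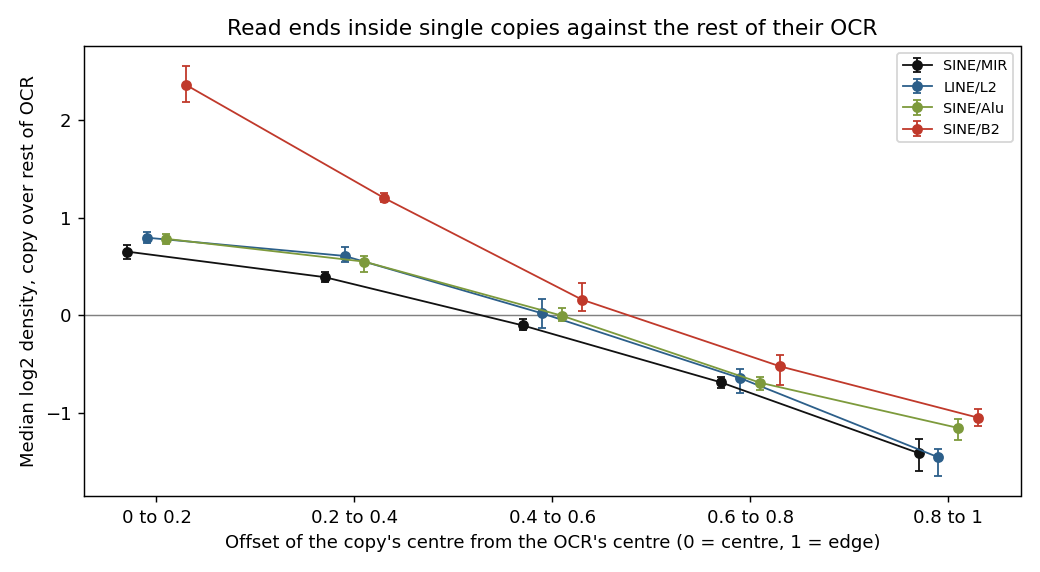
Median log2 ratio of end density inside single copies to the rest of their OCR, by the copy's offset from the OCR centre, for MIR, L2, Alu and B2; points are means over 8 libraries and bars run from the lowest to the highest library. MIR goes from 0.65 at the centre to -1.41 at the edge, and B2 starts at 2.36.

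The densest MIR copies, among those of at least 100 bp that are alone with no other repeat in their OCR, showed no separation of the genotypes. The first, a copy of the MIR subfamily (14:30315279-30315407 in GRCm39), lay in an OCR of 1028 bp and had 29.6 CPM per kb. On the same raw table total its values were 3.83, 3.91, 3.48 and 3.92 CPM in KO F1, F2, M1 and M2 and 2.90, 4.09, 4.54 and 3.87 in WT. All 4 KO values lay inside the WT range. Of the 10 densest, 4 were MIR3 copies, a subfamily with 1325 of the 8158 overlapping MIR copies. Its share among copies that meet the limits of this list was not taken. One of these 4, at 11:4247930-4248099, filled 170 of the 322 bp of its OCR and exceeded the density of the rest by 2.26 on the log2 scale. KO and WT values overlapped in all 10.

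Between genotypes, the share of counts in MIR as a family differed by less than the spread of the libraries. It held 2.29%, 2.38%, 2.80% and 2.07% of retrotransposon counts in KO F1, F2, M1 and M2 and 2.10%, 2.38%, 2.81% and 2.66% in WT. The means were 2.39% ± 0.31 and 2.49% ± 0.31 (SD, n = 4 each), and KO minus WT was -0.099 percentage points (95% interval -0.729 to 0.699; exact permutation p = 0.63). Outside OCRs the share was 1.82% ± 0.21 against 1.87% ± 0.19, a difference of -0.042 (-0.441 to 0.484; exact permutation p = 0.83). Both differences changed sign without KO M2 and without WT M1, to 0.006 and 0.009 for the first and 0.021 and 0.028 for the second. Without the library labelled KO F2 they were -0.096 and -0.045, and the first was 0.0145 points over the whole table, where MIR held 0.613% ± 0.025 of counts in KO and 0.599% ± 0.029 in WT. Within the first library set the difference of the MIR share was 0.168 points and within the second -0.365, with 2 libraries per genotype in each and no test. Outside OCRs it was 0.128 and -0.212.

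The concentration in OCRs also did not separate the genotypes. The share of MIR counts in overlapping copies averaged 39.2% ± 4.4 over the 4 KO and 41.2% ± 4.8 over the 4 WT libraries (SD), with a difference of -1.98 percentage points (95% interval -11.4 to 8.98; exact permutation p = 0.49). The log2 density ratio of overlapping over other copies was 2.87 ± 0.27 and 2.99 ± 0.29, a difference of -0.12 (-0.70 to 0.54; exact permutation p = 0.49). Adjusted over these 4 measures each p was 0.83, and 4 against 4 libraries cannot give less than 0.0286. Without the library labelled KO F2 the 2 differences were -1.72 and -0.10. Without KO M2 they were -0.194 and -0.01, and without WT F1 -3.94 and -0.24. Within sex labels the share differed by 1.97 points in female-labelled and by -5.92 in male-labelled libraries, with 2 libraries per genotype in each and no test. Within the library sets it differed by 2.27 and -6.22 points, and the log2 density ratio by 0.14 and -0.38. The sign of all 4 measures was thus opposite in the 2 sets, and this contrast was not tested. The libraries that placed more of the table in OCR rows also had the higher MIR share in overlapping copies, and the order of the 8 libraries was nearly the same on both. OCR counts enter both measures, and the part of this in the genotype comparison was not tested.

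All 5 subfamilies, summed over their copies, had overlapping CPM in the genotypes. CPM of subfamilies and of the single copies below are on another scale than the densities above, the table total multiplied by a TMM factor (a trimmed mean of ratios between libraries) taken over OCRs and copies together. On that scale KO M2 and WT F1 had the lowest values of each genotype, while on the raw table total these 2 libraries had the highest MIR share, 0.638% each. In KO F1, F2, M1 and M2 the MIR3 subfamily had 798, 817, 968 and 720 CPM and in WT 712, 818, 966 and 955. The groups overlapped, with means of 826 ± 104 and 863 ± 121 (SD, n = 4 each) and a log2 difference of -0.05 (SE 0.11; edgeR quasi-likelihood adjusted p = 0.990). MIRb had 2095 ± 204 and 2130 ± 209 CPM, the MIR subfamily 1928 ± 182 and 1954 ± 186, MIRc 877 ± 91 and 902 ± 97 and MIR1_Amn 286 ± 32 and 294 ± 35. Of all 831 subfamilies of retrotransposons tested, edgeR called 0 (0%), with 11 (1.32%) at an unadjusted p under 0.05, and none of the 5 MIR subfamilies was among those 11. The sign rested on the scaling. All 5 lay below 0 with scaling on OCRs and copies together (-0.02 to -0.05) and with scaling on retrotransposons (median -0.05), and all 5 above 0 with scaling on OCRs (median 0.06), which moved the median of all subfamilies from 0.02 to 0.12. All 5 MIR subfamilies lay below that median under both scalings, but not without KO M2, where all 5 lay above 0 (median 0.06) and above the median of all subfamilies, 0.02. Without WT M1 the MIR subfamily, at 0.0002, also lay above the median of all subfamilies, -0.0017. On copies outside OCRs alone all 5 lay above 0 (median 0.02) but below the median of all subfamilies, 0.05. Without the library labelled KO F2 they lay between -0.04 and -0.09. With the library set as a term edgeR called 0 of 831 subfamilies (0%), and the 5 MIR values were -0.02 to -0.06.

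No single MIR copy passed the threshold between genotypes in edgeR or DESeq2. A filter on low counts kept 8784 MIR copies (8.66%), 4519 of those in OCRs (55.4%) and 4265 of the others (4.57%). Among all 442422 retrotransposon copies tested edgeR called 0 (0%) and likewise 0 MIR copies at an adjusted p under 0.05. At an unadjusted p under 0.05 stood 469 MIR copies (5.34%), of which 332 were higher and 137 lower in KO, against 3.68% of all copies tested (2.5% higher). The split rested on single libraries. Without KO M2 it was 380 higher and 60 lower (4.29% of the MIR copies then tested, against 3.38% of all copies), and without KO M1 289 and 251 (5.22% against 3.76%). Without WT F1 it was 370 and 293 (6.36% against 4.81%), and without the library labelled KO F2 337 and 307 (6.20% against 4.55%). By set, over all libraries, these were 205 overlapping copies (4.54%) and 264 others (6.19%). DESeq2 called 0 of the 1032 MIR copies to which it gave an adjusted p, against 37 of 39277 copies (0.0942%). With the library set as a term edgeR again called 0 copies (0%), with 600 MIR copies (6.83%) at an unadjusted p under 0.05 against 4.86% of all. The median log2 difference of overlapping MIR copies tested was -0.07, of those outside OCRs 0.00 and of all copies tested 0.03. Those medians moved to 0.10, 0.10 and 0.00 without KO M2 and to -0.22, -0.11 and 0.01 without KO M1. Neither the shares nor the medians over all copies tested were split by overlap. Being a MIR copy and lying in an OCR thus cannot be told apart in these values.

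The 5 copies of smallest p on either side are given as values, since that p chose them, in CPM on the TMM-scaled table total. Their mean counts per library ran from 10.6 to 46, so single values rest on few counts. The first is a copy of the MIR subfamily at 2:24231666-24231768 in the middle of an OCR. It had 0.552, 0.856, 0.499 and 0.746 CPM in KO F1, F2, M1 and M2 and 0.217, 0.201, 0.210 and 0.0975 in WT. Every KO value lay above every WT value, with means of 0.663 ± 0.167 and 0.181 ± 0.056 (SD, n = 4 each) and a 3.64-fold difference (log2 1.86, SE 0.38; edgeR adjusted p = 0.614). A second MIR copy, at 8:117782010-117782110, also lay inside an OCR. It had 0.245, 0.549, 0.354 and 0.648 CPM in KO and 0.0928, 0.155, 0.140 and 0.0975 in WT, without overlap. The copy at 1:15225430-15225558 had the largest ratio of the 10, 5.03, and 1 library carried much of it. Its KO values were 0.276, 0.388, 1.19 and 0.118 CPM, the highest in KO M1, and its WT values 0.0702 to 0.108. Without KO M1 its log2 difference went from 2.33 to 1.27.

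Outside OCRs, 2 copies were among the 5 highest. A MIRb copy at 7:101549898-101550120, 3532 bp from the nearest OCR, had 0.536 to 0.903 CPM in KO and 0.146 to 0.351 in WT (a log2 difference of 1.59). A copy of the MIR subfamily at 2:101867507-101867721, 1065 bp from an OCR, had 0.582, 0.598, 0.548 and 0.510 CPM in KO and 0.232, 0.248, 0.140 and 0.146 in WT (2.94-fold). Its KO libraries lay close together. The edgeR adjusted p was 0.614 for each of these 5 copies.

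In the other direction, the copy with the lowest p was a MIR copy at 6:134863699-134863821, inside the OCR at 6:134863442-134864069. It had 0.199, 0.162, 0.193 and 0.0982 CPM in KO and 0.433, 0.403, 0.912 and 0.715 in WT. All KO values lay below all WT values, with a log2 difference of -1.82 (SE 0.40; edgeR adjusted p = 0.614). Its OCR, whose CPM are on the TMM-scaled total of OCR counts and not comparable in level with those of copies, had 1.12, 1.07, 0.996 and 0.753 CPM in KO and 2.68, 1.95, 4.17 and 2.96 in WT, with a log2 difference of -1.55 (SE 0.29; edgeR adjusted p = 0.323). Copy and OCR share their ends, so these are 1 observation. A MIR3 copy at 17:50750518-50750661 had 0.0306 to 0.129 CPM in KO and 0.155 to 0.617 in WT, and a MIR copy at 4:45903459-45903626 had 0.0589 to 0.129 and 0.155 to 0.561. Their mean counts per library were only 10.6 and 14.25. For a MIRb copy at 14:20098404-20098554 and a MIR3 copy at 9:102528458-102528589 the groups overlapped. All 5 lower copies had an edgeR adjusted p of at least 0.614.

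**Figure D5:**
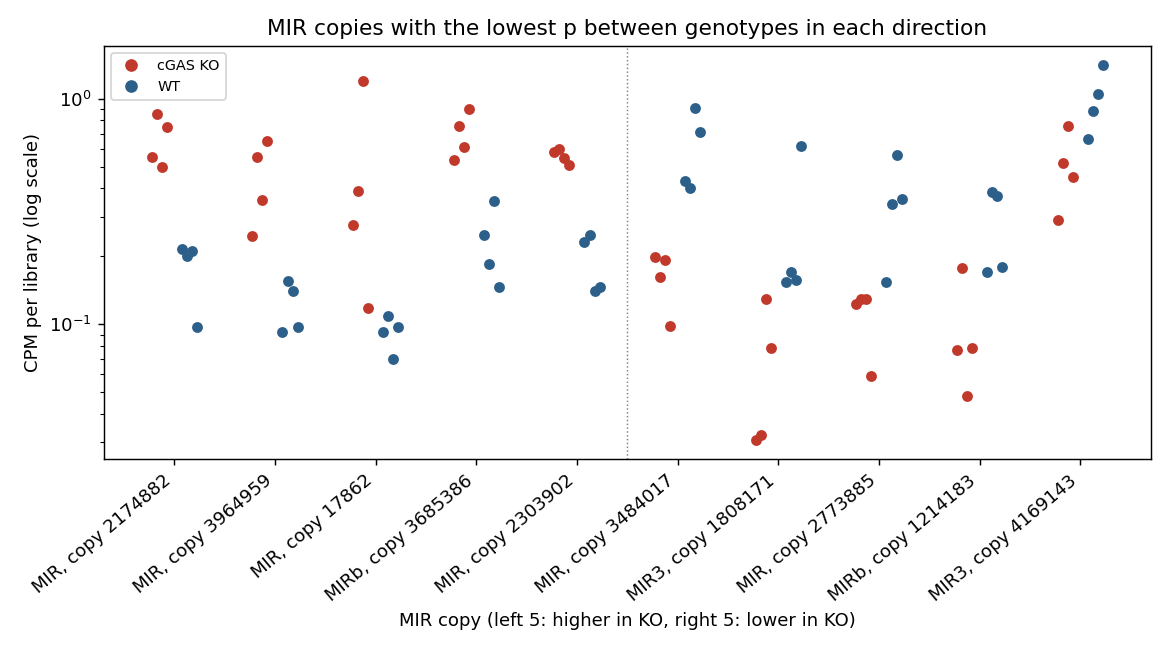
CPM (log scale, TMM-scaled table total) of the 10 MIR copies with the lowest p, 5 higher (left of the dotted line) and 5 lower in KO, with 1 point per library, KO red and WT blue. The groups separate in the first 8 copies and overlap in the last 2, and the spread within a group is widest for the third, from 0.118 to 1.19 in KO.

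Whether OCRs with a MIR copy were called between genotypes rested on the model. With the sex label as covariate, of 185267 OCRs tested edgeR called 0 (0%), and so 0 of the 7837 with a MIR copy. At an unadjusted p under 0.05 stood 869 of these (11.1%; 552 higher and 317 lower in KO), against 9.88% of all OCRs (6.42% higher). Without KO M2 the count was 434 (5.54%; 293 higher and 141 lower), against 5.2% of all OCRs, and without WT M2 564 (7.20%; 375 and 189), against 6.58%. It was 692 without KO M1 (8.83%; 501 and 191), against 8.09%, and 584 without WT M1 (7.45%; 379 and 205), against 6.46%. Without KO F1 it was 1015 (12.95%; 556 and 459), against 11.3%, and without the library labelled KO F2 1037 (13.2%; 569 and 468), against 12.1% of all OCRs. Over all libraries their median log2 difference was -0.01, against 0.00 over all OCRs. DESeq2 called 132 of 7520 MIR OCRs (1.76%), 114 higher and 18 lower in KO, against 1.6% of all OCRs (1.35% higher). With the library set as a further term edgeR called 404 MIR OCRs (5.16%), 306 higher and 98 lower in KO, against 8324 of all OCRs (4.49%; 3.5% higher). All 132 DESeq2 calls were among these 404. Neither of these 2 fits was run without the library labelled KO F2. The set was read from the same counts, so this fit is no independent evidence, and 0 calls without it do not show that the OCRs were alike.

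Among MIR OCRs with higher values in KO, the lowest p belonged to the OCR at 15:96641118-96641641, whose only repeat is a MIR3 copy of 111 bp. On the TMM-scaled OCR total it had 8.29, 5.42, 8.26 and 7.89 CPM in KO F1, F2, M1 and M2 and 3.29, 3.02, 3.67 and 4.04 in WT. The groups did not overlap, and the MIR3 copy itself differed by 1.14 on the log2 scale, close to the 1.09 (SE 0.18) of its OCR. Copy and OCR share their ends here too, so the copy's value is no separate observation. In the OCR at 1:166652868-166653500, where a MIRb copy covers 110 bp, KO had 0.969 to 1.61 CPM and WT 0.192 to 0.422 (3.75-fold). The OCRs at 2:45151850-45152443, 14:65181221-65181674 and 10:111822394-111822704 had ratios of 3.37, 2.93 and 3.11 and hold 56, 87 and 23 bp of a MIR copy.

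Lower in KO, after the OCR on chromosome 6 already described, stood the OCR at 11:31782486-31782764, with 0.0932 to 0.160 CPM in KO and 0.384 to 0.608 in WT. It had a mean of only 13.4 counts per library. The strongest region by count was the OCR at 9:102527129-102528329, with 29.9, 31.6, 31.1 and 28.5 CPM in KO and 34.0, 46.3, 47.7 and 46.4 in WT. Its log2 difference was -0.52 (SE 0.12), and it touches a MIRc copy over 75 of 1201 bp. The MIR3 copy on chromosome 9 named above lies 129 bp from its end and had a log2 difference of -0.98. The OCR at 6:22011352-22012448 had 7.53 to 9.34 CPM in KO and 12.2 to 13.5 in WT, and the OCR at 14:25738988-25739369, which meets a MIR1_Amn copy over 4 bp only, 1.69 to 2.49 and 3.36 to 5.23. Each of these 10 OCRs had an edgeR adjusted p of 0.323, and with the library set as a term 0.00895 to 0.0149. In DESeq2, 9 of the 10 passed, and the OCR on chromosome 11 had no adjusted p. They were chosen by their p, so separated groups and the passing of another fit on the same counts are no separate evidence.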

How the data were processed

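ATAC-seq counts in 8 libraries were analysed. The authors deposited 1 table of estimated counts over OCRs and repeats in GRCm39, made with featureCounts 2.0.3, per the file headers, which reduced each read to its 5′ end, required both mates and split ends that lay in several regions equally. Bowtie2, MACS2, Picard, SAMtools, Trim Galore and bedtools are also listed in the submitters' processing notes. How multiply placed reads were treated and whether positions were shifted for the transposase were not given in the sources used here. Overlaps were found with bedtools 2.31.1. Counts were rounded for edgeR 4.0.16 (R 4.3.3; robust quasi-likelihood, sex label as covariate, filterByExpr; TMM over OCRs, or over OCRs and copies together, which also scale the CPM printed for OCRs and for named copies and subfamilies, while densities and the densest copies use raw table totals) and DESeq2 1.42.0. Subfamilies needed a mean of 100 counts. P-values were adjusted by Benjamini-Hochberg with a threshold of 0.05. Shares were compared by exact two-sided permutation over 70 assignments, with 95% intervals by inverting that test (NumPy 2.4.6). Exact sign flips between families were run but are not reported, since every library measures the same copies in OCRs called on these reads. Density ratios used a pseudocount of 0.5. The copy fit, the fit with library sets, the exact tests and the density ratio were tested on simulated data.

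The members, families and lists were chosen with earlier results of these data known. Named are all MIR subfamilies, the 5 copies and 5 MIR OCRs of smallest p on either side, and the 10 densest copies of at least 100 bp lying wholly inside an OCR without other repeats; chromosome 18, Y and scaffolds are not named. Alternatives were DESeq2, other scalings and filters, no sex covariate, a replicate block, other overlap and length limits, and leaving out each library. Shares of subfamilies, a common size range and the library sets, found from the signs of correlations between KO and WT deviations over OCRs, were added after seeing the data. Motifs, gene positions, cell type markers, interferon genes and the knockout locus were not analysed here, since no sequence or annotation in GRCm39 was used.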

Additional observations from a re-analysis of the deposited data

Results flagged for a closer look

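Of 90 groups of 4 libraries checked, 7 had 1 library far from the other 3, by Dixon's test at the 95% level, where chance flags about 1 group in 20. CPM here have the scales of the report, raw table totals for the densest copies and TMM-scaled totals for the others. In the MIR3 copy at 4:47310990-47311173, one of the 10 densest, KO M2 was lowest in KO with 4.43 CPM. WT M2 was lowest in WT in the MIR copy at 2:24231666-24231768, with 0.0975 CPM, and highest in the MIR3 copy at 17:50750518-50750661, with 0.617 CPM. In the MIR copy at 4:45903459-45903626, KO M2 was lowest in KO with 0.0589 CPM. Among MIR OCRs, the library labelled KO F2 was lowest in KO at 15:96641118-96641641, with 5.42 CPM, KO M2 was highest in KO at 1:166652868-166653500, with 1.61 CPM, and WT F1 was lowest in WT at 9:102527129-102528329, with 34.0 CPM. The log2 differences of these 3 OCRs without 1 library at a time ran from 0.96 to 1.20, from 1.67 to 2.10 and from -0.63 to -0.46.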

How the results depend on the processing

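The counts of MIR copies and MIR subfamilies called stayed at 0 in every alternative run. With the replicate block the counts were also 0. An unadjusted p under 0.05 was reached by 718 of 10799 MIR copies (6.65%), against 4.80% of all 570571 copies then tested. Among MIR OCRs 1084 of 7837 (13.8%) reached it, against 12.4% of all OCRs. The family share differed by -0.099 points with the block (exact p = 0.75). The deviations of same-numbered libraries correlated at 0.58 (F1) and 0.60 (F2), pairs that share a library set. They correlated at -0.29 (M1) and -0.44 (M2), pairs that do not, so the numbers as a whole do not pair the libraries. DESeq2 called 132 MIR OCRs, and edgeR 0 with the sex label alone and 404 with the library set as a further term, an alternative added after seeing the data; the cause was not tested. The KO minus WT difference of the MIR share ran from -0.237 to 0.0089 points without 1 library and was 0.0145 over the whole table, and that outside OCRs ran from -0.140 to 0.028. The difference in end density to B4 turned from -0.095 to 0.0013 with copies of at least 100 bp, 0.128 in OCRs with at least 100 counts, 0.1005 without restored ends and 0.067 at common sizes. That to ID went from -0.066 to -0.040, -0.054, -0.197 and -0.015 with these. The log2 differences of the subfamilies MIR, MIR1_Amn, MIR3, MIRb and MIRc turned to 0.077, 0.057, 0.032, 0.071 and 0.056 with scaling on OCRs, and to 0.032, 0.030, 0.0066, 0.016 and 0.0023 on copies outside OCRs. Without 1 library they ran from -0.095 to 0.060, -0.118 to 0.057, -0.147 to 0.051, -0.101 to 0.058 and -0.117 to 0.051. Every alternative value for named OCRs and named copies kept its direction. For OCRs the adjusted p stayed above 0.05 in 125, passed in 19, in DESeq2 or with the library set, and was not given in 1 by DESeq2; for copies it stayed above 0.05 in 144 and was not given in 9. A copy outside OCRs had a median of 1.28 counts, which limits every value of single copies there.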
